A study of Mus musculus with 16 samples.

Results

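The genes described here are those of major histocompatibility complex (MHC) class I antigen presentation: the heavy chains H2-D1, H2-K1, H2-T23, H2-Q4 and H2-M3, the light chain B2m, the peptide transporter subunits Tap1 and Tap2, the loading protein Tapbp and the transcriptional regulator Nlrc5. They were chosen by symbol, as 10 of 54532 entries of a gene count table. All 10 were among the 17736 genes with enough counts to be tested, so no member was lost to the filter on low counts. Bulk RNA sequencing had been done on brain tissue of female mice aged 9 months, in 16 libraries of 4 genotypes with 4 libraries each. Ch25h encodes cholesterol 25-hydroxylase, an interferon-inducible enzyme that makes 25-hydroxycholesterol. With the gene present the mice were Ch25h+/+ Tau- or Ch25h+/+ Tau+. Without it they were Ch25h-/- Tau- or carried tau as well (Ch25h-/- Tau+). Tau+ is given in the labels without the name of the transgene, its promoter or the form of tau, and no treatment is given. The sample labels give the tissue as frontal cortex and the series text gives hippocampus. Markers of cortical neurons summed to 471 to 608 CPM (counts scaled to the same library size) over the 16 libraries. Markers of hippocampus summed to 117 to 274 CPM, of which Wfs1 gave 77.1%. The labels do not say that each library came from a separate animal, so the p-values measure the spread between these libraries. Replicate numbers below were given in the order of deposition, only name a library and pair nothing.

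MHC class I molecules display peptides from inside a cell to CD8 T cells and natural killer cells. A heavy chain pairs with beta-2 microglobulin in the endoplasmic reticulum, where the TAP transporter brings in peptides cut by the proteasome and tapasin holds the empty molecule to the transporter until a peptide binds. Interferons raise the transcription of the whole set, with NLRC5 as the class I transactivator. In the healthy brain class I is low, and is carried mainly by endothelial cells and microglia, while neurons can make it under inflammation and during synapse remodelling.

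In the GENCODE M21 annotation of the GRCm38 genome, 8 of the 10 genes lie on chromosome 17, in and around the H2 complex. H2-K1 (chr17:33996017-34000347, minus strand) and Tapbp (chr17:33915899-33929292, plus strand) lie at one end, followed by Tap1 (chr17:34187553-34197225, plus strand) and Tap2 (chr17:34203527-34216321, plus strand). H2-D1 (chr17:35262730-35267499, plus strand), H2-Q4 (chr17:35379617-35385290, plus strand), H2-T23 (chr17:36029773-36032855, minus strand) and H2-M3 (chr17:37270220-37274484, plus strand) lie further along. B2m is at chr2:122147686-122153083 on the plus strand and Nlrc5 at chr8:94434356-94527272 on the plus strand.

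RefSeq promoter sequences of GRCm38.p6 were found for 8 of the 10 genes. The 250 bases before the transcription start are shown for H2-K1, a classical heavy chain with the kappaB-like and interferon elements side by side, and for B2m, which has an interferon-stimulated response element (ISRE) of another form. Both are written 5′ to 3′ on the gene's own strand, with the motif matches in capitals: in H2-K1 (chr17:34000348-34000597, minus strand) the kappaB-like, interferon, X2-like and Y box matches in that order, and in B2m (chr2:122147437-122147686, plus strand) the ISRE and the Y box.
H2-K1: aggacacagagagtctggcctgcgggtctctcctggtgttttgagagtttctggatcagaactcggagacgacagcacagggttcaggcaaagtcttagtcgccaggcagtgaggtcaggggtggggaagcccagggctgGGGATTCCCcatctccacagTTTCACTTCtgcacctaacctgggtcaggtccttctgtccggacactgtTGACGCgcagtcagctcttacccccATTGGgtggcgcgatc
B2m: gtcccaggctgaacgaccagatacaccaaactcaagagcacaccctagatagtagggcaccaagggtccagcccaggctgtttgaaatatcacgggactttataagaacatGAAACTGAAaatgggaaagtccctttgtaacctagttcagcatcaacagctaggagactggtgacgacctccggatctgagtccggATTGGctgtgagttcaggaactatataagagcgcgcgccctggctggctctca

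A closer view of the paired elements in the heavy chains shows what H2-D1, H2-K1 and H2-Q4 share and H2-M3 does not. The stretches are at chr17:35262924-35262953 (H2-D1, plus strand), chr17:34000428-34000457 (H2-K1, minus strand), chr17:35379444-35379473 (H2-Q4, plus strand) and chr17:37270113-37270142 (H2-M3, plus strand), with the kappaB-like and interferon matches in capitals. The RefSeq start of H2-D1 lies downstream of the GENCODE start given above, so its stretch is before the RefSeq start and inside the GENCODE gene.
H2-D1: GGGATTCCCcatctcctcagTTTCACTTCt
H2-K1: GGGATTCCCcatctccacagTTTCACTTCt
H2-Q4: GGGATTTCCcatctccccagTTTCACTTCt
H2-M3: ttcccccatttcctctgaggTTTCACTTCt

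Motifs were searched on both strands of these windows. The kappaB-like motif GGGATTNCC was in 3 of the 8 promoters (H2-D1, H2-K1 and H2-Q4) and in 0.822% of 32851 promoters of the same length. The class I interferon element TTTCACTTC was in 4 of the 8 (H2-D1, H2-K1, H2-Q4 and H2-M3), against 0.402%. In H2-D1, H2-K1 and H2-Q4 its first base lay 20 bases after that of the kappaB-like match. The ISRE, spelled GAAANNGAA, was in 2 of the 8 (H2-T23 and B2m), against 7.13%. The X2-like motif TGACGC, part of the module that the NLRC5 complex is known to use, was in 3 of the 8 (H2-D1, H2-K1 and H2-M3), against 6.12%. The Y box, CCAAT, was in 8 of the 8, against 33.8%. The Tap1 promoter held only the Y box, and its start lay 226 bases from that of Psmb9, which is read from the opposite strand. A match of letters is a description of the window and does not show a bound site.

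**Figure D1:**
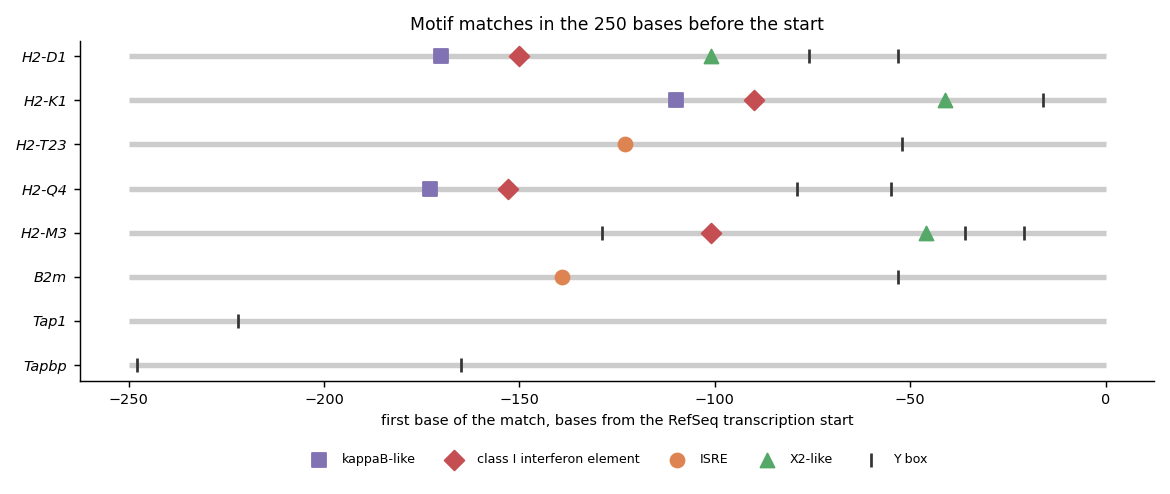
Position of each motif match (symbols) in the 250 bases before the RefSeq transcription start of 8 genes; the horizontal axis is the distance in bases of the first base of the match from the start. The kappaB-like and interferon matches stand 20 bases apart in H2-D1, H2-K1 and H2-Q4, and Tap1 and Tapbp hold only the Y box.

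The libraries held 15530352 to 25602500 counts. Ch25h was at 0 counts in all 8 Ch25h-/- libraries, and at 0.370 ± 0.144 CPM (SD, n = 4) in Ch25h+/+ Tau- and 0.963 ± 0.319 in Ch25h+/+ Tau+. Prnp, whose promoter drives some tau transgenes, was at 1677 and 1620 CPM in the Tau+ groups and at 783 and 756 CPM in the Tau- groups. The libraries fell into 2 classes by CT010467.1, a ribosomal RNA transcript. It took 2289 to 5684 CPM of total counts in 7 libraries and 111 to 475 in the other 9. The 7 were all 4 Ch25h-/- Tau- libraries and replicates 2, 3 and 4 of Ch25h-/- Tau+. The class therefore lies almost along the Ch25h genotype, and Ch25h-/- Tau+ replicate 1 is the only Ch25h-/- library of the low class. Levels below are CPM on library sizes scaled by the trimmed mean of M values. A gene is said to have risen or fallen where its edgeR quasi-likelihood p, adjusted by Benjamini-Hochberg over all 17736 genes, was under 0.05.

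Tau with Ch25h present was the first question, set by Ch25h+/+ Tau+ against Ch25h+/+ Tau-. In this comparison 8 of the 10 genes rose and none fell, where 1.47% of all genes tested rose. H2-Q4, Tap1, H2-D1, H2-K1, Nlrc5 and B2m were 1.91 to 2.42 times their Tau- level, and H2-T23 and Tapbp 1.47 and 1.38 times. Tap2 and H2-M3 did not pass. The median log2 fold change of the 10 genes was 0.99, against -0.01 over all genes. The libraries of the groups did not overlap in 9 of the 10 genes, all but H2-M3, where 3.89% of all genes were higher without overlap.

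H2-D1, the classical heavy chain H2-D, was at 51.3, 62.6, 59.7 and 57.8 CPM in the Ch25h+/+ Tau- libraries. In Ch25h+/+ Tau+ it was at 120, 122, 132 and 111 CPM. The lowest Tau+ library was well above the highest Tau- library, and the log2 fold change was 1.07 ± 0.09 (SE, edgeR adjusted p = 2.43e-06), the 4th smallest p of all genes. H2-K1, the classical heavy chain H2-K, was at 32.5, 39.9, 45.1 and 36.6 CPM without tau. With tau it was at 78.5, 90.1, 85.0 and 65.7 CPM. Replicate 4 was the lowest of the Tau+ group and still above every Tau- library, and the log2 fold change was 1.05 ± 0.12 (SE, edgeR adjusted p = 6.78e-05).

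The nonclassical heavy chains have narrower roles: H2-T23 is Qa-1, which presents signal peptides of other class I chains to natural killer cell receptors, and H2-M3 presents formylated peptides. H2-T23 was at 23.5, 27.9, 24.4 and 25.1 CPM in Ch25h+/+ Tau- and at 43.9, 34.5, 35.7 and 34.0 CPM in Ch25h+/+ Tau+. The Tau+ libraries were higher without overlap, with replicate 1 the highest (log2 fold change 0.55 ± 0.13, edgeR adjusted p = 0.0395). H2-Q4, a Qa-2 region heavy chain, was at 5.04, 5.14, 6.90 and 5.49 CPM without tau and at 15.5, 15.1, 13.1 and 8.64 CPM with tau. All Tau+ libraries were higher, and replicate 4 was the lowest of them (log2 fold change 1.21 ± 0.22, edgeR adjusted p = 0.00465). H2-M3 was at 2.08, 2.84, 3.15 and 3.33 CPM without tau and at 5.48, 3.11, 4.32 and 4.06 CPM with tau. The groups overlapped, and the log2 fold change of 0.57 (95% interval 0.13 to 1.01) did not pass (edgeR adjusted p = 0.317). H2-M3 rested on 30 to 93 counts a library.

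B2m, the light chain shared by all class I heavy chains, was at 60.8, 61.1, 73.4 and 65.5 CPM in Ch25h+/+ Tau-. It was at 138, 128, 122 and 111 CPM in Ch25h+/+ Tau+, with no overlap (log2 fold change 0.93 ± 0.11, edgeR adjusted p = 0.000136). Per kilobase of exon, B2m was the highest of the 10 genes in every group, at 75.8 CPM per kilobase in Ch25h+/+ Tau- and 145 in Ch25h+/+ Tau+. H2-D1 followed at 22.4 and 47.0 and H2-K1 at 13.1 and 27.2 CPM per kilobase. Tapbp was at 9.68 and 13.4, H2-T23 at 8.73 and 12.8, and Tap2 at 2.68 and 3.61. The lowest levels per kilobase were those of Tap1, at 0.697 and 1.60, and Nlrc5, at 0.160 and 0.387.

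Of the subunits of the TAP transporter, Tap1 passed and Tap2 did not. Tap1 was at 3.79, 3.56, 5.31 and 2.62 CPM in Ch25h+/+ Tau- and at 9.73, 9.30, 7.34 and 8.59 CPM in Ch25h+/+ Tau+. All Tau+ libraries were higher, with a log2 fold change of 1.19 ± 0.18 (SE, edgeR adjusted p = 0.00137). Tap2 was at 9.29, 11.1, 10.7 and 9.52 CPM without tau and at 13.7, 13.2, 14.2 and 13.4 CPM with tau. The groups did not overlap, but the log2 fold change of 0.43 ± 0.13 did not pass (edgeR adjusted p = 0.132). The difference between the subunits was not tested. Tapbp, which encodes tapasin, was at 33.4, 33.4, 38.7 and 35.0 CPM without tau and at 53.0, 47.2, 43.8 and 49.96 CPM with tau (log2 fold change 0.46 ± 0.10, edgeR adjusted p = 0.0142). Tapbp overlaps Zbtb22 on the same strand, a gene at 29.0 to 50.8 CPM, so reads could be split between them.

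Nlrc5, the transactivator, was the lowest of the set at 11 to 105 counts a library. It was at 1.48, 1.31, 1.64 and 1.01 CPM in Ch25h+/+ Tau- and at 1.97, 4.42, 4.37 and 2.38 CPM in Ch25h+/+ Tau+. Replicates 2 and 3 were well above replicates 1 and 4, and none overlapped the Tau- group (log2 fold change 1.27 ± 0.29, edgeR adjusted p = 0.0296). The calls of H2-D1, H2-K1, H2-Q4, B2m and Tap1 held under each of the 24 alternatives. The calls of H2-T23, Nlrc5 and Tapbp were lost when single libraries were left out, in 7, 5 and 3 of 16 fits. H2-T23 was also lost with the ribosomal RNA class as a covariate (log2 fold change 0.55, edgeR adjusted p = 0.0524) and with offsets for GC content (0.52, adjusted p = 0.0525). Nlrc5 was also lost on the 8 libraries compared alone (1.28, adjusted p = 0.0735). Without Ch25h+/+ Tau- replicate 1 or replicate 2, 5 of the 10 genes passed. These fits called 0.98% and 1.13% of all genes in either direction, against 1.56% in the main fit.

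**Figure D2:**
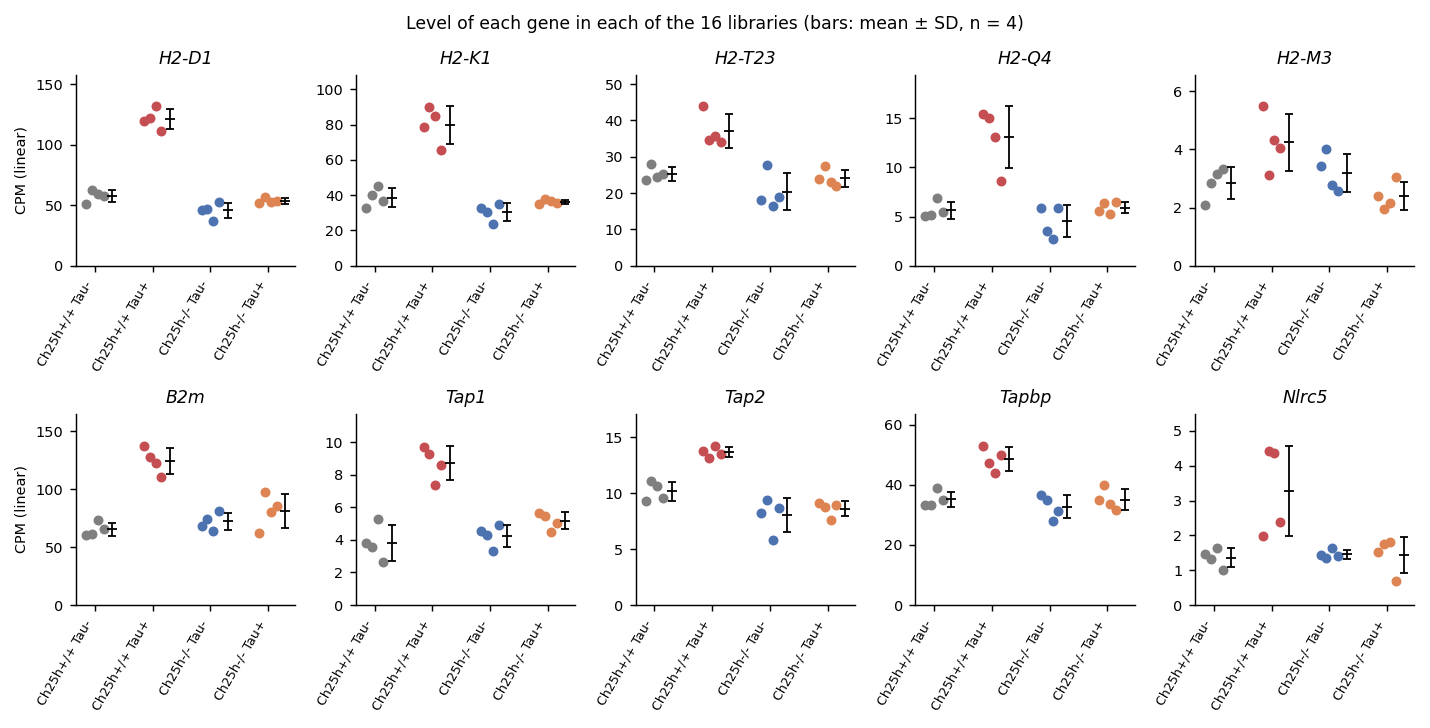
Level of each of the 10 genes in CPM (vertical axis, linear, from 0) in each of the 16 libraries, grouped by genotype; points are libraries and bars the mean ± SD of 4. The Ch25h+/+ Tau+ libraries are above all 12 others for every gene but H2-M3, and the Ch25h-/- groups overlap each other.

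Tau with Ch25h absent was the second question, set by Ch25h-/- Tau+ against Ch25h-/- Tau-. None of the 10 genes passed, where 0.0395% of all genes passed in either direction, and all 10 overlapped between the groups, where 2.14% of all genes did not. DESeq2 and limma-voom also called 0 of the 10, where they called 0.079% and 0.0338% of all genes. The unadjusted edgeR p was under 0.05 for 1 of the 10, H2-D1, and for 3.68% of all genes. The fitted values were above 0 for 8 genes, with a median of 0.20 over the 10 and 0.01 over all genes. H2-D1 was at 46.1, 46.9, 37.3 and 52.8 CPM in Ch25h-/- Tau- and at 51.8, 56.9, 52.5 and 53.3 CPM in Ch25h-/- Tau+. Its groups overlapped only through replicate 4 of the Tau- group, and the log2 fold change was 0.23 (95% interval 0.03 to 0.42). H2-K1 was at 32.8, 30.2, 23.7 and 35.0 CPM without tau and at 35.0, 37.6, 36.7 and 35.5 CPM with tau. The interval of its log2 fold change ran from -0.01 to 0.51. B2m was at 68.4, 74.5, 64.2 and 81.4 CPM without tau and at 62.3, 97.6, 80.1 and 85.6 CPM with tau, so its Tau+ libraries spanned the whole Tau- range. Its interval ran from -0.07 to 0.41. Tap1 was at 4.52, 4.29, 3.31 and 4.91 CPM against 5.67, 5.46, 4.49 and 5.06 CPM, with an interval of -0.12 to 0.68. For all 10 genes the upper bound of the interval was below the fitted tau effect in Ch25h+/+. This leaves out the error of the Ch25h+/+ value and is no test of a difference. The difference was tested as an interaction, given below, where only H2-D1 passed.

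Of the other genes, H2-T23 was at 18.2, 27.8, 16.5 and 19.0 CPM in Ch25h-/- Tau- and at 23.98, 27.4, 23.1 and 21.9 CPM in Ch25h-/- Tau+. Replicate 2 of the Tau- group was higher than every Tau+ library. H2-Q4 ranged from 2.71 to 5.91 CPM without tau and from 5.28 to 6.43 CPM with tau, with a log2 fold change of 0.39. Tap2 and Tapbp each had a log2 fold change of 0.10. Nlrc5 was at 1.45, 1.35, 1.63 and 1.39 CPM without tau and at 1.53, 1.75, 1.82 and 0.687 CPM with tau. Replicate 4 was the lowest of all 16 libraries, and the interval was wide, from -0.66 to 0.66. H2-M3 had a value below 0, -0.42 (95% interval -0.88 to 0.04).

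Loss of Ch25h in Tau+ tissue was the third question, set by Ch25h-/- Tau+ against Ch25h+/+ Tau+. This comparison shares the Ch25h+/+ Tau+ libraries with the first one, so the values below are a second reading of the same 4 libraries. All 10 genes fell, where 2.4% of all genes fell. None of the 10 overlapped between the groups, where 5.74% of all genes were lower without overlap. The median log2 fold change was -0.79, against 0.00 over all genes. Ch25h+/+ Tau+ was 2.26 times Ch25h-/- Tau+ for H2-D1, 2.21 for H2-K1, 2.22 for H2-Q4 and 2.27 for Nlrc5. It was 1.78 times for H2-M3, 1.69 for Tap1, 1.59 for Tap2, 1.54 for H2-T23, 1.53 for B2m and 1.39 for Tapbp.

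Among the heavy chains, H2-D1 fell by 1.18 on the log2 scale (SE 0.09, edgeR adjusted p = 2.61e-06), the smallest p of all genes in that comparison. H2-K1 fell by 1.14 (SE 0.12, edgeR adjusted p = 6.79e-05). H2-Q4 was at 5.52, 6.37, 5.28 and 6.43 CPM in Ch25h-/- Tau+, below the lowest Ch25h+/+ Tau+ library, and fell by 1.15 (SE 0.22, edgeR adjusted p = 0.0106). H2-T23 fell by 0.62 (SE 0.13, edgeR adjusted p = 0.0209). H2-M3 was at 2.39, 1.95, 2.16 and 3.06 CPM, the last just under the 3.11 CPM of the lowest Ch25h+/+ Tau+ library. It fell by 0.82 (SE 0.22, edgeR adjusted p = 0.0454), close to the threshold.

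In the loading machinery, B2m fell by 0.61 (SE 0.11, edgeR adjusted p = 0.00854). Tap1 fell by 0.75 (SE 0.18, edgeR adjusted p = 0.0338). Tap2, which had not passed in the tau comparison, was at 9.12, 8.71, 7.61 and 8.93 CPM and fell by 0.67 (SE 0.13, edgeR adjusted p = 0.0114). Tapbp was at 34.8, 39.96, 33.6 and 31.7 CPM and fell by 0.47 (SE 0.10, edgeR adjusted p = 0.0156). Nlrc5 fell by 1.18 (SE 0.29, edgeR adjusted p = 0.0360). H2-D1 and H2-K1 kept their call under every alternative. Fewer genes passed when a library was left out: 5 without Ch25h-/- Tau+ replicate 3 or replicate 4, and 6 without Ch25h+/+ Tau+ replicate 4. In that order these fits called 0.65%, 0.838% and 0.602% of all genes in either direction, against 3.55% in the main fit. Over the 16 fits that left out a library, the call was lost in 8 for H2-M3, 6 for Nlrc5, 5 for Tap1, and 3 each for H2-T23 and Tapbp. On the 8 libraries compared alone, H2-M3 (edgeR adjusted p = 0.116), Nlrc5 (0.130), B2m (0.0548) and Tapbp (0.0569) did not pass, at log2 fold changes of -0.82, -1.18, -0.61 and -0.47.

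The ribosomal RNA class moves with this comparison, and only Ch25h-/- Tau+ holds libraries of both classes. A fit with the class as a covariate therefore rests on Ch25h-/- Tau+ replicate 1, the only library of the low class in that group. Its values for Ch25h loss in Tau+ are in effect that library against the Ch25h+/+ Tau+ libraries. With the class as a covariate, H2-D1, H2-K1 and B2m passed. The log2 fold changes of the heavy chains were -1.23 and -1.19, and that of B2m went from -0.61 to -0.998. The other 7 kept their sign at -0.48 to -1.24 and did not pass, and 0.0564% of all genes passed in that fit. With offsets that removed each library's trend against GC content, 4 genes passed (H2-D1, H2-K1, H2-Q4 and B2m), where 1.14% of all genes passed in either direction. The other 6 kept their sign, at -0.49 for H2-T23 and Tap2, -0.80 for H2-M3, -0.62 for Tap1 and -1.13 for Nlrc5, while Tapbp went from -0.47 to -0.27. Ch25h-/- Tau+ replicate 1, of the same class as the Ch25h+/+ libraries, was below all 4 Ch25h+/+ Tau+ libraries for 10 of the 10 genes, as it was for 17.5% of all genes. It stood at 0.427 times the Ch25h+/+ Tau+ mean for H2-D1, where the other 3 libraries of its group averaged 0.447. The same pair of ratios was 0.438 and 0.458 for H2-K1, 0.649 and 0.572 for Tap1, 0.718 and 0.723 for Tapbp, and 0.465 and 0.432 for Nlrc5. For B2m they differed more, at 0.501 and 0.705. The ratios of replicate 1 are a second reading of the library behind the covariate fit, not separate from it. The tau comparison in Ch25h+/+ lies wholly within the low class.

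**Figure D3:**
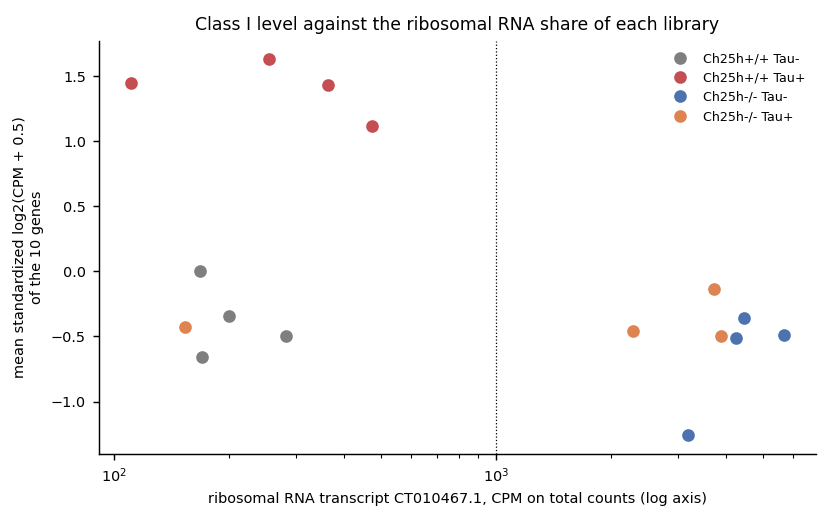
Mean standardized log2(CPM + 0.5) of the 10 genes (vertical axis) against CT010467.1 in CPM of total counts (horizontal axis, log scale), 1 point per library, coloured by genotype; the dotted line is at 1000 CPM. The 4 Ch25h+/+ Tau+ libraries stand highest among the libraries of either class, and Ch25h-/- Tau+ replicate 1, left of the line, lies with the rest of its group.

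Loss of Ch25h without tau was the fourth question, set by Ch25h-/- Tau- against Ch25h+/+ Tau-, where the ribosomal RNA class and the genotype cannot be told apart. None of the 10 genes passed, where 1.03% of all genes passed in either direction, and all 10 overlapped, where 16.2% of all genes did not. Unadjusted edgeR p-values were under 0.05 for 4 genes, H2-D1, H2-K1, H2-T23 and Tap2, each lower in Ch25h-/- Tau-, where 20.9% of all genes had such a p. H2-D1 had a log2 fold change of -0.34 (95% interval -0.53 to -0.14, edgeR adjusted p = 0.0685). It passed with no filter on low counts (edgeR adjusted p = 0.0473), in DESeq2 (adjusted p = 0.0147) and in limma-voom (adjusted p = 0.0286). Those fits called 1.54%, 6.34% and 7.83% of all genes. H2-D1 also passed in the edgeR fits that left out replicate 1 of Ch25h+/+ Tau+ (adjusted p = 0.0365) or replicate 4 of the Ch25h-/- Tau- group (0.0410). In these, 7.25% and 1.32% of all genes passed. No other member passed under any alternative, but DESeq2 gave 4 of the 10 no adjusted p. The filter on a mean of 50 counts left Nlrc5 untested. H2-K1 had a log2 fold change of -0.34 and Tap2 of -0.33, while B2m, Tap1, H2-M3 and Nlrc5 were at 0.15, 0.15, 0.16 and 0.09. The median was -0.21 over the 10 genes and 0.01 over all genes.

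The difference between the tau effects, Ch25h-/- minus Ch25h+/+, was tested as an interaction. H2-D1 passed, at -0.84 ± 0.13 (SE, 95% interval -1.11 to -0.57, edgeR adjusted p = 0.0222), among the 0.0338% of all genes that did. Its tau effect was 1.07 with Ch25h and 0.23 without. H2-K1, at -0.80 (95% interval -1.16 to -0.44), and B2m, at -0.76 (95% interval -1.10 to -0.42), each had an edgeR adjusted p of 0.100 and passed with DESeq2. All 10 values were below 0, with a median of -0.81 against 0.02 over all genes, and 8 had an unadjusted p under 0.05, as 4.13% of all genes did. H2-T23 at -0.31 (95% interval -0.71 to 0.09) and Tap2 at -0.33 (95% interval -0.71 to 0.05) were the exceptions. The H2-D1 call was lost with the ribosomal RNA class as a covariate (-0.82, edgeR adjusted p = 0.0565). It was lost too when Ch25h+/+ Tau- replicate 4 was left out (adjusted p = 0.0576), or either of replicates 3 (0.0589) and 4 (0.0566) of the Ch25h-/- Tau+ group, with values of -0.84 to -0.85.

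**Figure D4:**
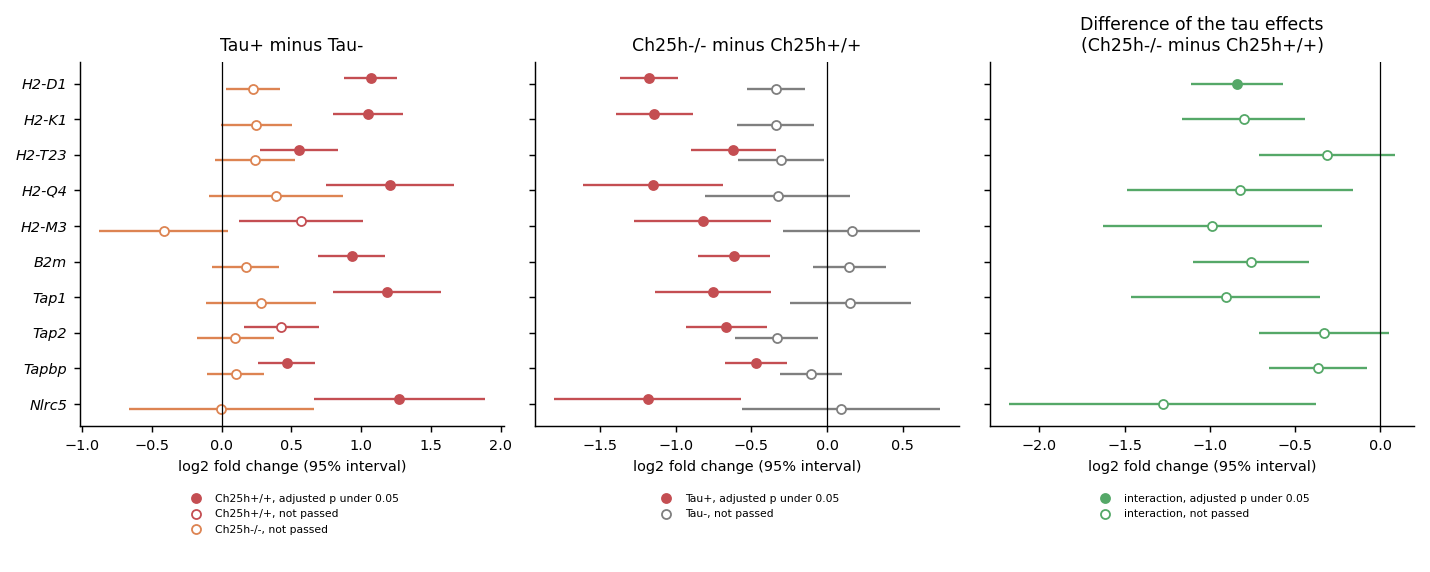
Log2 fold changes (horizontal axis) of the 10 genes with 95% intervals for the tau effect in each Ch25h genotype (left), Ch25h loss in each tau status (middle) and the difference of the tau effects (right); filled points passed and open points did not. The fitted tau effect is higher in Ch25h+/+ than in Ch25h-/- for each gene, and all 10 differences are below 0.

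Across all groups, the 4 Ch25h+/+ Tau+ libraries were above the 12 others in 9 of the 10 genes, as they were in 1.53% of all genes. Ch25h+/+ Tau+ had the highest mean in 10 of the 10. The order of the other 3 groups varied from gene to gene. Within Ch25h+/+ Tau+, replicate 1 was the highest for 6 genes and replicate 4 the lowest for 5. In Ch25h-/- Tau-, replicate 3 was the lowest for 8 genes, and its mean deviation from the group mean over all 10 genes was -0.26 on the log2 scale. In Ch25h+/+ Tau-, replicate 1 was the lowest for 8 genes. Over the 16 libraries, Pearson correlations between log2 levels of the 45 pairs of genes ran from 0.271 (H2-M3 with Nlrc5) to 0.988 (H2-D1 with H2-K1), with a median of 0.819. These points share the group differences. Deviations from the group means gave correlations of -0.644 to 0.863 with a median of 0.34, and the highest was again H2-D1 with H2-K1.

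The heavy chains are near-identical over parts of their transcripts, and how multi-mapping reads were counted is not given in the sources used here. Of the 50-base windows of its annotated transcripts, 12.8% were shared with another gene for H2-D1, 9.63% for H2-K1, 13.6% for H2-T23 and 21.8% for H2-Q4. In the same 50-base windows the share was 0.576% for H2-M3 and 0 for B2m and Nlrc5. With 100-base windows the shares of these 4 heavy chains were 3.59%, 0.957%, 3.15% and 2.16%. The values of single heavy chains are uncertain where reads fell in shared windows, by an amount that these shares do not measure. The sum over 19 H2 class I genes does not depend on how reads were split between those 19. Multi-mapping reads left uncounted, or counted to other genes, would still change it. H2-D1 and H2-K1 gave 51.3% to 67.4% of the sum over the 16 libraries, so it largely repeats their values. It was 172 ± 11.8 CPM (SD, n = 4) in Ch25h+/+ Tau- and 307 ± 29.8 in Ch25h+/+ Tau+. It was 144 ± 17.4 CPM in Ch25h-/- Tau- and 159 ± 5.15 in Ch25h-/- Tau+. The lowest Ch25h+/+ Tau+ library, at 263 CPM, was above the highest of all the others, at 184 CPM.

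By likeness to the mean of the 10 genes over the 16 libraries, the closest of 13946 other genes were Ctsz, a lysosomal cathepsin (Pearson r = 0.934), and C1qb, a chain of complement C1q (0.931). Irgm1, an interferon-inducible GTPase (0.926), Cmtm6, a membrane protein that stabilises PD-L1 (0.922), and Bst2, the antiviral protein tetherin (0.921), followed. These genes were picked over the same libraries, in which Ch25h+/+ Tau+ stands highest, so their differences between groups follow from the choice and are a description only. Their tau effects in Ch25h+/+ were log2 fold changes of 0.91, 1.12, 0.85, 0.32 and 1.66 in that order. In Ch25h-/- they were 0.22, 0.42, 0.04, 0.10 and 0.58.

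Other genes of the pathway were read from lists by role, beside the 1.47% of all genes that rose with tau in Ch25h+/+ and the 2.4% that fell with Ch25h loss in Tau+. Of 13 tested further class I heavy chains and class I-like genes, 0 passed in the tau comparison in Ch25h+/+, with a median log2 fold change of 0.40. H2-Q6, H2-Q7 and H2-Q1 were at 1.14, 1.10 and 1.07 (edgeR adjusted p = 0.257, 0.272 and 0.316). H2-Q6 ranged from 3.22 to 9.93 CPM within Ch25h+/+ Tau+. With Ch25h loss in Tau+, 3 of the 13 fell: H2-Q6 by 1.72, H2-Q7 by 1.71 and Fcgrt, the neonatal Fc receptor, by 0.45. The 10 further genes of peptide loading and trimming in the endoplasmic reticulum had medians of -0.00 and 0.02 in these comparisons, and 0 passed in either. Erap1, the trimming peptidase, was at 0.34 in the tau comparison (edgeR adjusted p = 0.364), and the chaperones Hspa5 and Calr at -0.19 and -0.13.

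Of 14 tested genes of cytosolic peptide supply, 3 rose with tau in Ch25h+/+: Psmb8 and Psmb9, catalytic subunits of the immunoproteasome, and Lap3, an aminopeptidase. Psmb8 went from 2.19 to 5.75 CPM (log2 fold change 1.38, edgeR adjusted p = 0.0014). Psmb9 changed by 0.96 (edgeR adjusted p = 0.0435) and Lap3 by 0.32 (edgeR adjusted p = 0.0296). In Tau+ tissue, 4 fell with Ch25h loss: Psmb8 by 1.63, Psmb9 by 1.29, Lap3 by 0.34 and Psmb5, a constitutive subunit, by 0.91.

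Of 22 transcription factors and interferon receptors, 3 rose with tau in Ch25h+/+, Irf7 and Irf8 among them. Irf7, a factor of type I interferon responses, went from 2.17 to 7.53 CPM (log2 fold change 1.79, edgeR adjusted p = 0.0029). Irf8, a myeloid lineage factor, went from 6.29 to 13.1 CPM (1.06, edgeR adjusted p = 0.00225). In Tau+ tissue, 5 fell with Ch25h loss: Irf7 by 1.15, Irf8 by 0.96, Irf1 by 0.50, Ifnar2 by 0.42 and Ifngr1 by 0.39. Of 14 class I receptors and related immune receptors, 3 had enough counts to be tested. Of these, 2 rose with tau: Pirb, an inhibitory receptor for class I, and Lilrb4a, an inhibitory receptor of the same family that is not a known class I receptor. Lilrb4a went from 0.323 to 2.12 CPM (edgeR adjusted p = 0.0179) and Pirb from 0.333 to 1.07 CPM (edgeR adjusted p = 0.0338). Lilrb4a fell by 2.47 with Ch25h loss in Tau+, and Pirb did not pass there (log2 fold change -1.28, edgeR adjusted p = 0.0676). The ribosomal RNA class lies almost along this comparison: with it as a covariate, a fit added after the values were seen, 0 of the 13 pathway genes that fell kept their edgeR call and all 13 kept their sign. In that fit, which rests on Ch25h-/- Tau+ replicate 1, Psmb9 went from -1.29 to -0.80. An unadjusted p under 0.05 was seen there for 14 of the 62 tested pathway genes, and for 825 of all 17736 genes. All 8 calls for tau in Ch25h+/+ were kept. No gene of any of the 5 lists passed in the other comparisons or the interaction.

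**Figure D5:**
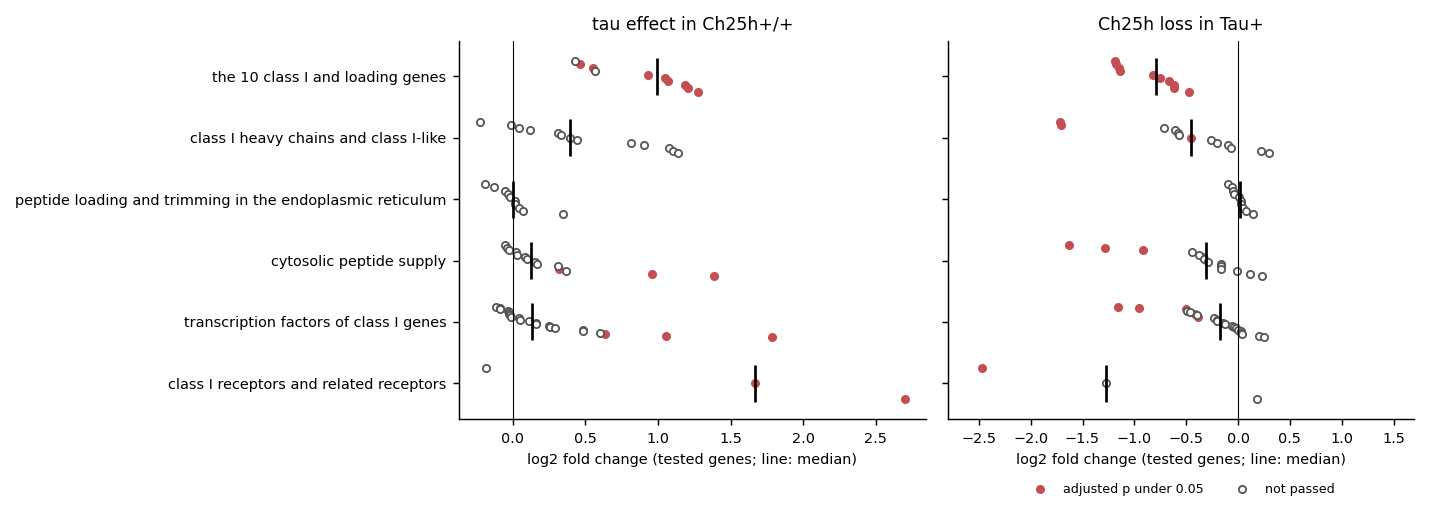
Log2 fold changes (horizontal axis) of the tested genes of the set and of the 5 pathway lists (vertical axis) for the tau effect in Ch25h+/+ (left) and Ch25h loss in Tau+ (right); filled points passed, and lines are medians. The 10 genes have medians of 0.99 and -0.79, while the further loading genes of the endoplasmic reticulum lie around 0.

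In bulk tissue, fewer cells of a type and less RNA per cell cannot be told apart, which bears on every level above. Microglial markers summed to 295 to 321 CPM in the Ch25h+/+ libraries without tau and to 369 to 473 CPM in those with it. The Ch25h-/- libraries were at 301 to 326 CPM without tau and at 299 to 363 CPM with it. Of 8 microglial markers, 3 rose with tau in Ch25h+/+ and 4 fell with Ch25h loss in Tau+, against 1.47% and 2.4% of all genes, and the others did not pass. Their part in the class I differences was not tested. Endothelial markers summed to 200 to 227, 227 to 280, 206 to 238 and 205 to 260 CPM in the same order of groups, and 0 of 6 passed in either comparison. The T cell markers Cd8a and Cd8b1, of the receptor that reads class I, were at 0 in 7 and 9 of the 16 libraries and at no more than 10 and 2 counts in any. Cd3e, Cd3d and Cd3g were at 0 in 4, 10 and 8 libraries. Trbc2 gave 85.1% of the summed T cell markers, which were at 10.4 to 11.9 CPM without tau and 9.09 to 14.8 CPM with tau in Ch25h+/+. Of 5 astrocyte markers, Gfap rose with tau in Ch25h+/+ and fell with Ch25h loss in Tau+, and the other 4 passed in neither comparison. Choroid plexus markers, mainly Ttr, ranged from 12.7 to 2706 CPM over the libraries.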

How the data were processed

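Gene counts deposited by the authors as 1 raw table for 16 libraries were used; per the labels' protocols, RNA was isolated on columns (PureLink) and an mRNA kit (SMARTer) was used for the libraries. STAR 2.7 and the GRCm38 (mm10) genome are named per the submitters' processing notes; the counting program, annotation, strand setting and treatment of multi-mapping reads are not given in the sources used here. All 16 libraries were fitted together with a mean per group in edgeR 4.0.16 (R 4.3.3; filterByExpr, trimmed mean of M values, quasi-likelihood F test, Benjamini-Hochberg over 17736 genes, threshold 0.05). The 5 comparisons were the tau effect with and without Ch25h, the effect of Ch25h loss with and without tau, and the interaction. The fit was tested on simulated counts. No 2 libraries of a group agreed within sampling noise, so none was treated as a repeat of another. That does not show that they came from separate animals. Each library was counted as 1 sample. Library totals of 15530352 to 25602500 limit the precision of the low genes.

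The 10 genes, the pathway and marker lists, and the ribosomal RNA threshold of 1000 CPM were chosen with earlier results of these data known. The genes named are the 10, up to 3 per pathway list with the smallest p for tau in Ch25h+/+, and the 5 most like the set (mean log2 CPM of at least 1, on log2(CPM + 0.5)). Psmb5, Fcgrt, Irf1, Ifnar2, Ifngr1 and Gfap fall outside that rule and were named after their values were seen. Some listed genes are not reported here by name. Alternatives were other scaling, filters (none; a mean of 50 counts), the ribosomal RNA class as a covariate, GC offsets (loess span 0.5; GC known for 99.0% of tested genes), DESeq2 1.42.0, limma-voom (limma 3.58.1), the 8 libraries compared, and leaving out each library. Positions are from GENCODE M21 by symbol, which matched 98.7% of table symbols. Promoters are from RefSeq (GRCm38.p6).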

Additional observations from a re-analysis of the deposited data

Results flagged for a closer look

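The tau effect on H2-D1 differed between the Ch25h genotypes by a test of the difference itself. The interaction was -0.84 on the log2 scale (edgeR adjusted p = 0.0222), from a tau effect of 1.07 in Ch25h+/+ and of 0.23 in Ch25h-/-. The ribosomal RNA class of the libraries lies almost along the Ch25h genotype, and its part in the difference was not tested beyond the fit with the class as a covariate, where the value was -0.82 and the adjusted p 0.0565. By Dixon's criterion no library stood apart in the 40 sets of 4 libraries, 1 for each gene and group.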

How the results depend on the processing

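No paired analysis was possible because the labels give no replicate numbers, and those used here only name the libraries. Of the 10 genes, the number that rose with tau in Ch25h+/+ was 8, and 5 to 9 with single libraries left out. Across the alternatives for tau in Ch25h-/-, 0 to 4 members had an unadjusted p under 0.05, as did 417 to 1496 of all genes. Nlrc5 was not tested with a mean of 50 counts. The number that passed for tau in Ch25h-/- was 0 under every alternative run. For Ch25h loss in Tau+ it was 10, and it was 3 with the ribosomal RNA class as a covariate, 4 with GC offsets, 6 on the 8 libraries compared alone, and 5 to 10 with single libraries left out. For Ch25h loss in Tau- it was 0, 1 (H2-D1) with no filter, in DESeq2 and in limma-voom, and 0 to 1 with single libraries left out. For the interaction it was 1, 3 with no filter and in DESeq2, and 0 to 2 with single libraries left out. With the class as a covariate it was 0, and 8 members had an unadjusted p under 0.05, as did 747 of all genes. Signs turned only where the values were not called: with single libraries left out, the Nlrc5 tau effect in Ch25h-/- ran from -0.13 to 0.21 and that of Tap2 from -0.033 to 0.17, and the Nlrc5 value for Ch25h loss in Tau- from -0.027 to 0.19. For Ch25h loss in Tau-, B2m was -0.35 with the class as a covariate and -0.056 with GC offsets, and Tapbp was 0.082 with GC offsets. The covariate value is not a separate reading of this comparison, where class and genotype cannot be told apart. Its class shift comes from Ch25h-/- Tau+, the only group with libraries of both classes. The cause of the other turned signs was not tested.

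Over all genes, tau in Ch25h+/+ gave 277 calls, 498 in limma-voom, 424 in DESeq2 and 160 to 299 with single libraries left out. Tau in Ch25h-/- gave 7, 28 with no filter, 14 in DESeq2, 2 with a mean of 50 counts and 6 to 13 with single libraries left out. Ch25h loss in Tau+ gave 629, 1883 in limma-voom, 1494 in DESeq2, 202 with GC offsets, 106 on 8 libraries, 10 with the class and 108 to 1691 with single libraries left out. Ch25h loss in Tau- gave 182, 1388 in limma-voom, 1124 in DESeq2, 1229 on 8 libraries, 522 with no filter, 13 with GC offsets, 0 with the class and 3 to 1306 with single libraries left out. The interaction gave 6, 57 with no filter, 55 in DESeq2, 3 with the class and 0 to 22 with single libraries left out.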
